A study of Mus musculus with 12 samples.

Results

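The knockdown of the coactivators YAP1 and TAZ was compared with a block of the TEAD transcription factors in mouse keratinocytes with an active Hedgehog pathway, as in basal cell carcinoma. Gene by gene, the effect of the knockdown minus the effect of the TEAD inhibitor was tested over all 12 libraries of the series. The test covered 12966 of the 17090 genes in the deposited table, those with at least 1 CPM (a normalised read count) in at least 3 libraries, and set aside 4124. The cells of every group were primary tail-skin keratinocytes of K14-SmoM2 mice, which carry an active form of the Hedgehog transducer Smoothened in cells that express keratin 14. They were taken 5 weeks after tamoxifen, so the controls carry the same active allele. All groups were cultured with 60 µM calcium, 10 ng per ml mouse EGF and 10 µM of Y-27632. In the siYAP1+TAZ group the cells received pooled small interfering RNAs against both coactivators, and in siControl a non-targeting pool, each at 8 pmol per cm2. In the ad_TEADi group they received an adenovirus that expresses a TEAD inhibitor from a CMV promoter, and in ad_GFP a virus that expresses green fluorescent protein, at a multiplicity of infection of 25. Each group had 3 libraries, lettered A to C and harvested 48 h after delivery. The labels do not state whether the libraries of a group were separate cultures or mice. The p-values therefore reflect the spread among these libraries, which may be technical. Delivery differed too: a lipid reagent carried the siRNA and a virus the inhibitor. The effect of delivery cannot be told apart from other differences between the experiments.

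YAP1 and TAZ, encoded by Yap1 and Wwtr1, are coactivators that the Hippo kinase cascade keeps out of the nucleus. They do not bind DNA themselves and reach most of their target genes through TEAD factors, and they also bind other partners. In the epidermis YAP and TAZ are known to sustain proliferation of the basal layer, and their loss favours differentiation. A knockdown lowers the coactivators for TEAD and for any other partner, while a TEAD inhibitor acts on TEAD and leaves the coactivator genes in place.

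Depth was 20.02 to 29.12 M reads per library, and every library correlated more closely with those of its own group (Pearson r of at least 0.9967 over genes) than with those of any other group (at most 0.9902). Markers of the basal keratinocyte were high, with summed levels of 18 tested genes of 50620 CPM or more in each library. The column totals of the deposited values differed between groups, at 1017558 ± 1970 CPM in siYAP1+TAZ, 890008 ± 7850 in siControl, 924595 ± 12200 in ad_TEADi and 864071 ± 7260 in ad_GFP (mean ± SD, n = 3 each). Since the libraries are of bulk RNA, fewer cells of a type and less RNA per cell cannot be told apart.

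Effects are given as differences of group means on the log2(CPM + 1) scale. The knockdown effect is siYAP1+TAZ minus siControl, the inhibitor effect is ad_TEADi minus ad_GFP, and the difference is the knockdown effect minus the inhibitor effect, so a positive difference means that the knockdown effect was the higher. A gene was called at an adjusted p below 0.05 (limma with Benjamini-Hochberg adjustment over all 12966 genes, two-sided). The difference was called higher for 3249 genes (25.1% of those tested) and lower for 3424 (26.4%). It was at least 2-fold in 436 called higher (3.36%) and 89 called lower (0.686%). Scaling the columns to a common total gave 2514 higher and 4655 lower, so that the share of called genes that were higher was 35.1%, against 48.7% with the deposited scaling. That scaling moved the median knockdown effect over all genes to -0.21, against -0.03, the median inhibitor effect to -0.06, against 0.03, and the median difference to -0.10, against -0.02. Small differences of either sign therefore depend on the scaling, and those of the 113 genes named by rule were checked under it. Other genes mentioned here, named after their values were seen, were not checked singly.

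Singly, 4245 genes rose (32.7%) and 4687 fell (36.1%) with the knockdown, and 4339 rose (33.5%) and 3415 fell (26.3%) with the inhibitor. Across the 12966 genes the effects had a Pearson correlation of 0.714 and a Spearman correlation of 0.595. This describes genes measured in the same 12 libraries, which are not independent replicates. Of the 4973 genes that passed in both comparisons with the same sign, 2406 also had a called difference, and the knockdown effect was the larger in 1780 of them and the inhibitor effect in 626. In 368 genes (2.84%) the knockdown effect was called higher, the inhibitor effect lower and the difference called, and 618 genes (4.77%) had the reverse. At the other end, 167 genes (1.29%) were alike: both effects passed in one direction by at least 2-fold, and the 95% confidence interval of the difference lay within -0.5 to 0.5. They comprised 73 rises and 94 falls among 578 genes that moved at least 2-fold in one direction under both treatments. In 32 of the 167 the small difference was itself called.

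**Figure D1:**
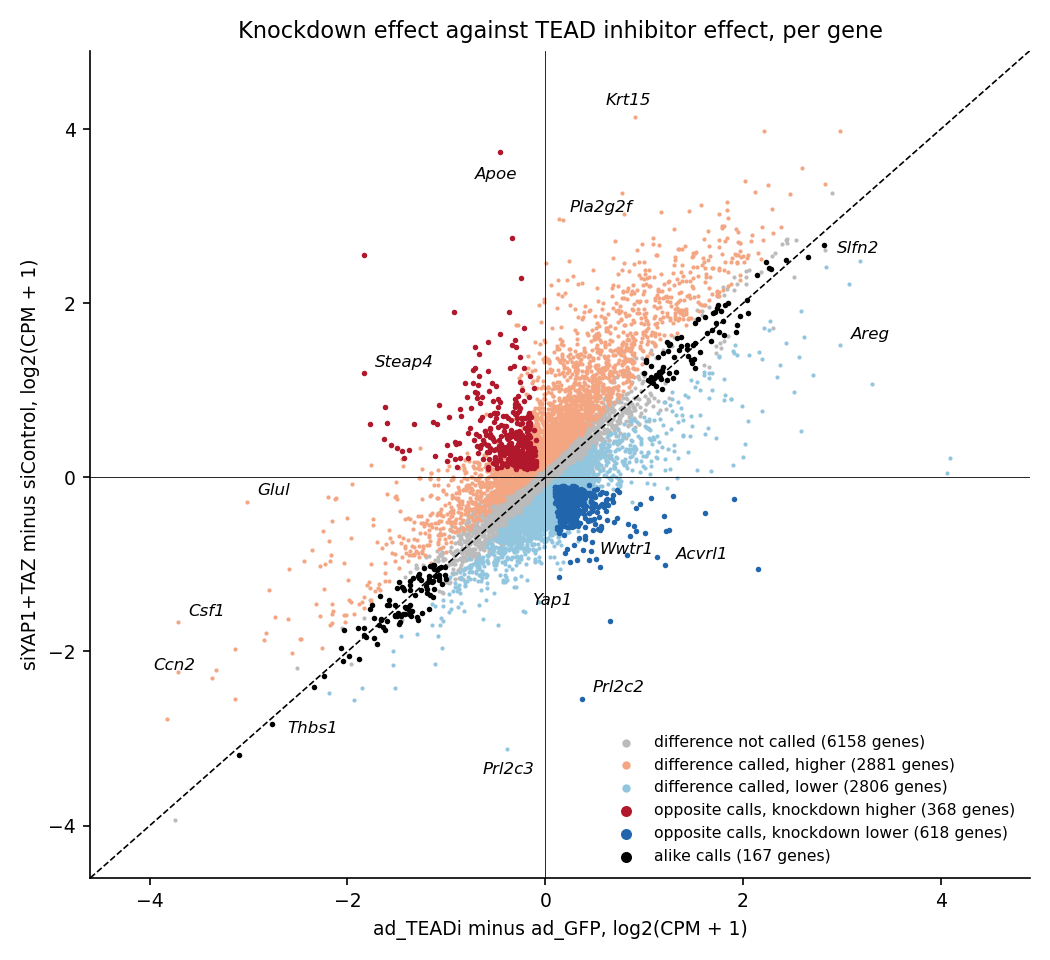
Each point is 1 of 12966 tested genes, with the inhibitor effect (ad_TEADi minus ad_GFP) on the horizontal axis and the knockdown effect (siYAP1+TAZ minus siControl) on the vertical axis, both in log2(CPM + 1). Points near the dashed line of equal effects include the 167 alike genes, such as Thbs1 and Slfn2, and the 368 and 618 genes with opposite calls fill the upper left and lower right, with Apoe and Acvrl1 among them.

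The control groups differed as well, and each difference of effects can be split into a part between the treated groups (siYAP1+TAZ minus ad_TEADi) and a part between the controls (ad_GFP minus siControl), which sum to it. Between treated groups 3864 genes were higher (29.8%) and 4002 lower (30.9%), and between controls 2421 were higher (18.7%) and 2823 lower (21.8%). Of the 6673 called differences, 3091 had a called treated part and no called control part, 1033 the reverse, 2365 both and 184 neither. The treated part was the larger in 4894 and the control part in 1779. For this reason levels in all 4 groups are given for many of the named genes, and only effects or differences for the others.

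The targets of the siRNA pools served as a check of the labels. Yap1 (chromosome 9, 7931999 to 8004596 on mm10) had 71.7, 62.5 and 67.1 CPM in siYAP1+TAZ, against 206, 196 and 187 CPM in siControl. It had 175, 183 and 180.5 CPM in ad_TEADi, against 211, 213 and 208 CPM in ad_GFP. The siYAP1+TAZ libraries lay below all others, and ad_TEADi lay slightly below ad_GFP. The knockdown effect was -1.54 and the inhibitor effect -0.23, with a difference of -1.31 (SE 0.0659; limma, Benjamini-Hochberg adjusted p = 1.79e-11). Wwtr1 (chromosome 3, 57455649 to 57575910) had 30.0, 26.1 and 28.1 CPM in siYAP1+TAZ, against 56.5, 52.9 and 56.1 CPM in siControl. It had 77.5, 78.8 and 81.9 CPM in ad_TEADi, against 59.7, 55.04 and 59.9 CPM in ad_GFP. Wwtr1 was lowest in every siYAP1+TAZ library and highest in every ad_TEADi library, so the effects had opposite signs (-0.95 and 0.44), with a difference of -1.39 (SE 0.0735; limma, Benjamini-Hochberg adjusted p = 3.26e-11). Controls were not called different for either gene, with 0.10 for Yap1 and 0.08 for Wwtr1.

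The 4 TEAD genes, which encode the DNA-binding partners, did not follow one pattern. Tead1 averaged 39.7 ± 1.96 CPM in siYAP1+TAZ, 75.7 ± 1.96 CPM in siControl, 56.1 ± 3.83 CPM in ad_TEADi and 76.4 ± 2.04 CPM in ad_GFP (mean ± SD, n = 3 each). It fell more with the knockdown (-0.92) than with the inhibitor (-0.44), with a difference of -0.48 (limma, Benjamini-Hochberg adjusted p = 1.87e-05). Tead4 averaged 25.0 CPM in siYAP1+TAZ, 28.6 CPM in siControl, 38.0 CPM in ad_TEADi and 25.6 CPM in ad_GFP, with a knockdown effect of -0.19, an inhibitor effect of 0.55 and a difference of -0.74 (limma, Benjamini-Hochberg adjusted p = 1.14e-06). Tead3 averaged 98.6 CPM in siYAP1+TAZ, 34.0 CPM in siControl, 69.5 CPM in ad_TEADi and 35.3 CPM in ad_GFP and rose under both treatments, by 1.51 and 0.96 (difference 0.55). Tead2 averaged 1.85 CPM in siYAP1+TAZ, 3.08 CPM in siControl, 1.83 CPM in ad_TEADi and 5.66 CPM in ad_GFP, and its difference of 0.71 lay almost wholly between the controls (0.70). For Vgll4, a TEAD cofactor that competes with YAP, the difference was -0.09 (95% confidence interval -0.24 to 0.05; limma, Benjamini-Hochberg adjusted p = 0.281). Under column totals it was called (limma, Benjamini-Hochberg adjusted p = 0.0334).

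The strongest alike falls included genes of the extracellular matrix. Thbs1, which encodes the matrix glycoprotein thrombospondin 1 (chromosome 2, 118111876 to 118127133), had 352, 421 and 414 CPM in siYAP1+TAZ, against 2766, 2927 and 2780.0 CPM in siControl. It had 335, 368 and 383 CPM in ad_TEADi, against 2353, 2502 and 2505 CPM in ad_GFP. Both treated groups lay far below their controls, and the ranges of siYAP1+TAZ and ad_TEADi overlapped while ad_GFP lay below siControl. The effects were -2.84 and -2.76, with a difference of -0.08 (95% confidence interval -0.26 to 0.10). Adamts15, a secreted metalloprotease gene, averaged 3.23 ± 1.05 CPM in siYAP1+TAZ, 36.9 ± 1.05 CPM in siControl, 3.63 ± 0.926 CPM in ad_TEADi and 38.2 ± 1.69 CPM in ad_GFP (mean ± SD, n = 3 each). Its effects were -3.19 and -3.10, with an interval of the difference of -0.50 to 0.31. The collagen V chain gene Col5a2 averaged 12.0 CPM in siYAP1+TAZ, 62.2 CPM in siControl, 13.0 CPM in ad_TEADi and 64.8 CPM in ad_GFP (interval of the difference -0.21 to 0.13). Cd200, which encodes a membrane glycoprotein that inhibits myeloid cells, averaged 40.2 ± 3.15 CPM in siYAP1+TAZ, 176 ± 7.74 CPM in siControl, 29.0 ± 3.39 CPM in ad_TEADi and 122 ± 0.523 CPM in ad_GFP (mean ± SD, n = 3 each). Its effects were -2.11 and -2.05, although its controls differed by -0.52 (interval of the difference -0.25 to 0.14).

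Among the 28 YAP/TAZ-TEAD targets that were tested, the knockdown lowered 24 (against 36.1% of all genes) and raised 3 (against 32.7%). The inhibitor lowered 22 (against 26.3%) and raised 4 (against 33.5%). The median effects were -0.80 and -0.75, against medians over all genes of -0.03 and 0.03. The difference was called higher in 7 (25.0%) and lower in 9 (32.1%), shares near those of all genes. The alike targets, named after their values were seen, were Thbs1, Ccn1 (-1.69 and -1.68), the angiomotin gene Amotl2 (-2.05 and -1.98) and Igfbp3 (-1.28 and -1.49). In the extracellular matrix and adhesion list 8 of 33 genes were alike (against 1.29% of all genes), all of them falls. The difference was called higher in 10 (30.3%, against 25.1% of all genes) and lower in 11 (33.3%, against 26.4%), with a median of -0.01. In the contractile cytoskeleton and SRF target list the counts were 4 higher (17.4%) and 8 lower (34.8%) of 23, with a median of -0.09. The shares of all genes were 25.1% and 26.4%. This list held 3 alike genes, named after their values were seen: the smooth muscle actin gene Acta2, the tropomyosin gene Tpm1 and Fhl1. Column totals raised the lower count to 12, and analysis on linear CPM gave 10 higher and 5 lower.

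Among alike rises, Slfn2, a schlafen family gene, had 23.9, 25.2 and 26.2 CPM in siYAP1+TAZ, against 3.48, 2.52 and 3.39 CPM in siControl. It had 25.6, 23.9 and 27.1 CPM in ad_TEADi, against 3.08, 2.01 and 3.29 CPM in ad_GFP. The treated groups overlapped each other, as did the control groups (effects 2.67 and 2.82, interval of the difference -0.49 to 0.18). Galnt6, an enzyme gene of O-linked glycosylation, averaged 172 CPM in siYAP1+TAZ, 31.9 CPM in siControl, 107 CPM in ad_TEADi and 21.1 CPM in ad_GFP, and Ly6g6c, a gene of the Ly6 surface protein family, 244 CPM in siYAP1+TAZ, 43.0 CPM in siControl, 87.9 CPM in ad_TEADi and 18.04 CPM in ad_GFP. Their effects were 2.39 and 2.29 for Galnt6 and 2.48 and 2.24 for Ly6g6c. The carboxypeptidase M gene Cpm averaged 63.2 CPM in siYAP1+TAZ, 10.2 CPM in siControl, 35.01 CPM in ad_TEADi and 4.72 CPM in ad_GFP, with effects of 2.53 and 2.66. For Cpm, Ly6g6c and Galnt6 the treated libraries and the controls each differed while the log-scale difference of effects was not called, so likeness here is one of ratio and not of level: on linear CPM the differences of Cpm, Ly6g6c and Galnt6 were called higher, and those of Thbs1 and Cd200 lower.

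**Figure D2:**
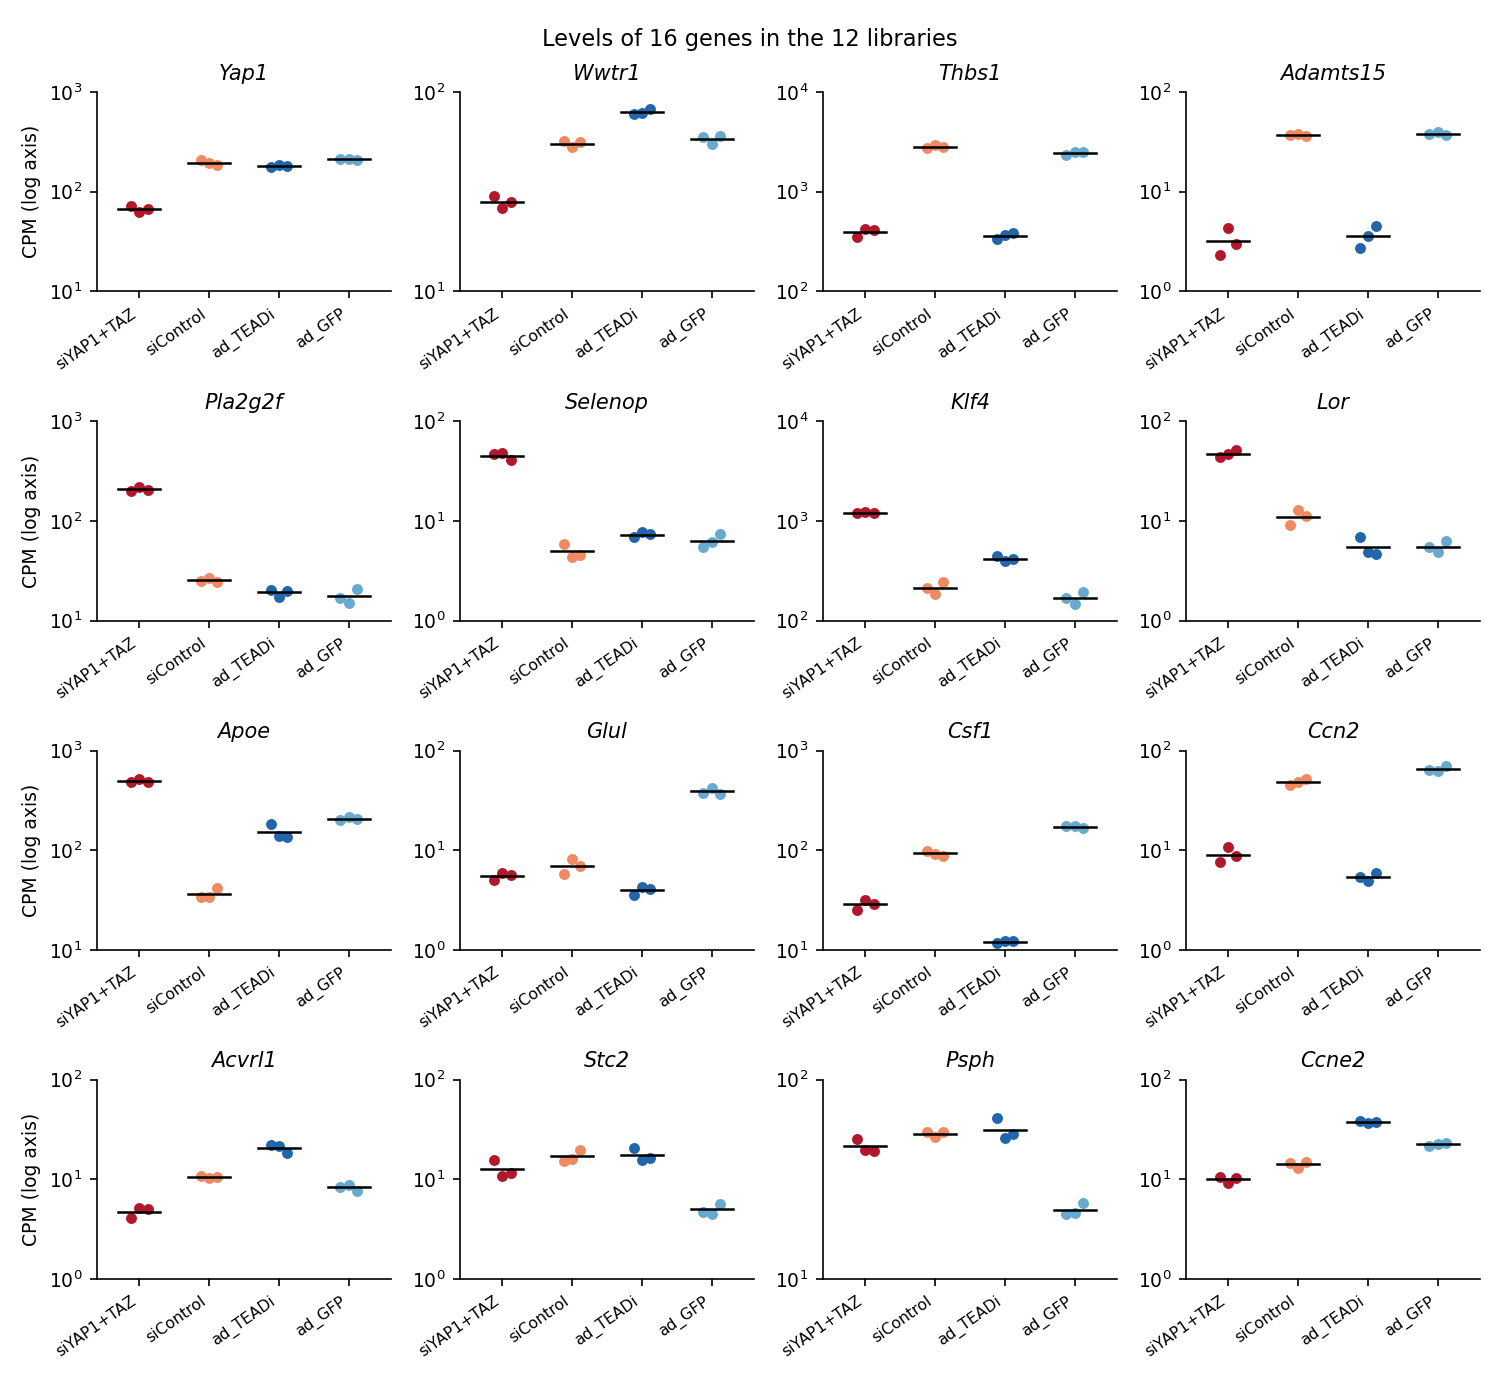
CPM on a log axis for 16 genes, with 1 point for each of the 3 libraries of siYAP1+TAZ, siControl, ad_TEADi and ad_GFP and a line at the group mean. Thbs1 and Adamts15 show equal falls, Pla2g2f, Selenop and Lor a rise in siYAP1+TAZ alone, Glul and Stc2 an ad_GFP group that stands apart, and Ccne2 opposite effects.

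Some genes fell under both treatments, and further with the inhibitor. Ccn2, a standard readout of TEAD activity, had 7.55, 10.7 and 8.77 CPM in siYAP1+TAZ, against 45.2, 47.8 and 51.5 CPM in siControl. It had 5.37, 4.96 and 5.89 CPM in ad_TEADi, against 64.5, 61.9 and 69.6 CPM in ad_GFP. The groups did not overlap, with the lowest values in ad_TEADi and the highest in ad_GFP. The effects were -2.31 and -3.37, with a difference of 1.07 (SE 0.126; limma, Benjamini-Hochberg adjusted p = 1.13e-06), of which 0.63 lay between the treated groups and 0.43 between the controls. Tagln, the actin-binding transgelin gene, averaged 8.24 ± 0.798 CPM in siYAP1+TAZ, 42.6 ± 2.92 CPM in siControl, 3.88 ± 0.102 CPM in ad_TEADi and 63.0 ± 3.64 CPM in ad_GFP (mean ± SD, n = 3 each), with effects of -2.24 and -3.71 and a difference of 1.47 (limma, Benjamini-Hochberg adjusted p = 8.71e-10). Csf1, the macrophage growth factor gene, had 25.4, 32.0 and 28.7 CPM in siYAP1+TAZ, against 98.6, 91.7 and 88.4 CPM in siControl. It had 11.7, 12.4 and 12.2 CPM in ad_TEADi, against 173, 175 and 166 CPM in ad_GFP. Again ad_TEADi was the lowest group and ad_GFP the highest (difference 2.05, limma, Benjamini-Hochberg adjusted p = 1.85e-12). Fstl1, a secreted follistatin-like gene, averaged 4.65 CPM in siYAP1+TAZ, 6.80 CPM in siControl, 3.85 CPM in ad_TEADi and 11.7 CPM in ad_GFP, with a difference of 0.92 and a control part of 0.70. Fn1 was the fibronectin member of this pattern, chosen after its values were seen, with effects of -1.45 and -2.31. In the reverse direction, the collagen gene Col5a3 fell further with the knockdown (-2.42 against -1.52 with the inhibitor). The matrix and adhesion list held 3 genes with opposite calls, of 33 tested. Of all genes 2.84% were called higher with the knockdown and lower with the inhibitor, and 4.77% the reverse. Sparc and Thbs2 were higher with the knockdown and lower with the inhibitor. The integrin subunit gene Itga5, named after its values were seen, had the reverse (-0.17 and 0.11) and was not checked under other scalings. Sparc averaged 144 CPM in siYAP1+TAZ, 127 CPM in siControl, 92.8 CPM in ad_TEADi and 186 CPM in ad_GFP, and Thbs2 averaged 2.87 CPM in siYAP1+TAZ, 1.05 CPM in siControl, 1.40 CPM in ad_TEADi and 3.15 CPM in ad_GFP. Under column totals and quantile normalization the knockdown effect of Sparc was no longer called (limma, Benjamini-Hochberg adjusted p = 0.885 and 0.465).

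Genes of terminal differentiation mostly rose under both treatments, and more with the knockdown. In the spinous differentiation list all 24 tested genes rose with the knockdown (against 32.7% of all genes) and 22 with the inhibitor (against 33.5%). The median effects were 2.13 and 1.40. The difference was called higher in 21 (87.5%, against 25.1% of all genes) and lower in 0 (limma; 0 at an unadjusted p under 0.05). Those not called, named after their values were seen, were the desmosomal genes Dsc2 and Dsg3 and the repressor gene Prdm1, at -0.17, 0.16 and 0.27 (limma with Benjamini-Hochberg adjustment). Klf4, which encodes a differentiation transcription factor, had 1192, 1217 and 1214 CPM in siYAP1+TAZ, against 215, 186 and 244 CPM in siControl. It had 444, 395 and 419 CPM in ad_TEADi, against 168, 146 and 195 CPM in ad_GFP. Every siYAP1+TAZ library exceeded every ad_TEADi library, and these exceeded both controls (difference 1.183, limma, Benjamini-Hochberg adjusted p = 1.80e-07). Cebpa, another differentiation factor gene, averaged 113 CPM in siYAP1+TAZ, 24.9 CPM in siControl, 41.6 CPM in ad_TEADi and 23.9 CPM in ad_GFP (difference 1.36), and the desmoglein gene Dsg1a 1407 CPM in siYAP1+TAZ, 209.7 CPM in siControl, 449 CPM in ad_TEADi and 149 CPM in ad_GFP (difference 1.13).

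In the cornified envelope list 24 of 34 genes had a higher difference (70.6%, against 25.1% of all genes) and 4 a lower one, with median effects of 2.04 and 1.35. The control level was called lower in ad_GFP than in siControl for 33 of the 34 (against 21.8% of all genes), with a median of -0.73. The inhibitor rise thus started from a lower level. Lor, which encodes the envelope protein loricrin, had 43.7, 47.3 and 51.2 CPM in siYAP1+TAZ, against 9.03, 13.0 and 11.2 CPM in siControl. It had 6.96, 4.91 and 4.62 CPM in ad_TEADi, against 5.46, 4.85 and 6.26 CPM in ad_GFP. It rose in siYAP1+TAZ alone: the effects were 2.01 and -0.02, with a difference of 2.03 (limma, Benjamini-Hochberg adjusted p = 1.98e-08). Hrnr, the hornerin gene, averaged 108 CPM in siYAP1+TAZ, 19.8 CPM in siControl, 17.4 CPM in ad_TEADi and 12.3 CPM in ad_GFP (difference 1.90). Lce1a1, a late envelope gene, averaged 17.8 CPM in siYAP1+TAZ, 11.1 CPM in siControl, 1.52 CPM in ad_TEADi and 6.60 CPM in ad_GFP and had opposite calls (difference 2.22), with the reservation that Lce genes have similar copies. The 4 lower differences, named after their values were seen, were in Sprr2d (-1.43), Sprr2h (-0.44), Crct1 (-0.98) and Lce3c (-0.58), of which Sprr2 and Lce3 genes also have similar copies. In the list of barrier lipid synthesis 19 of 24 genes had a higher difference (79.2%, against 25.1% of all genes). The list had 0 lower differences (limma), also 0 at an unadjusted p under 0.05. Its member Smpd3, a sphingomyelinase gene, averaged 171 CPM in siYAP1+TAZ, 37.2 CPM in siControl, 39.2 CPM in ad_TEADi and 24.8 CPM in ad_GFP (difference 1.502). The acyltransferase gene Agpat4 averaged 47.9 CPM in siYAP1+TAZ, 9.02 CPM in siControl, 10.3 CPM in ad_TEADi and 4.54 CPM in ad_GFP (difference 1.26). The ceramide synthase gene Cers4, with opposite calls, was low, at 5.23 CPM in siYAP1+TAZ, 1.61 CPM in siControl, 1.21 CPM in ad_TEADi and 1.80 CPM in ad_GFP.

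**Figure D3:**
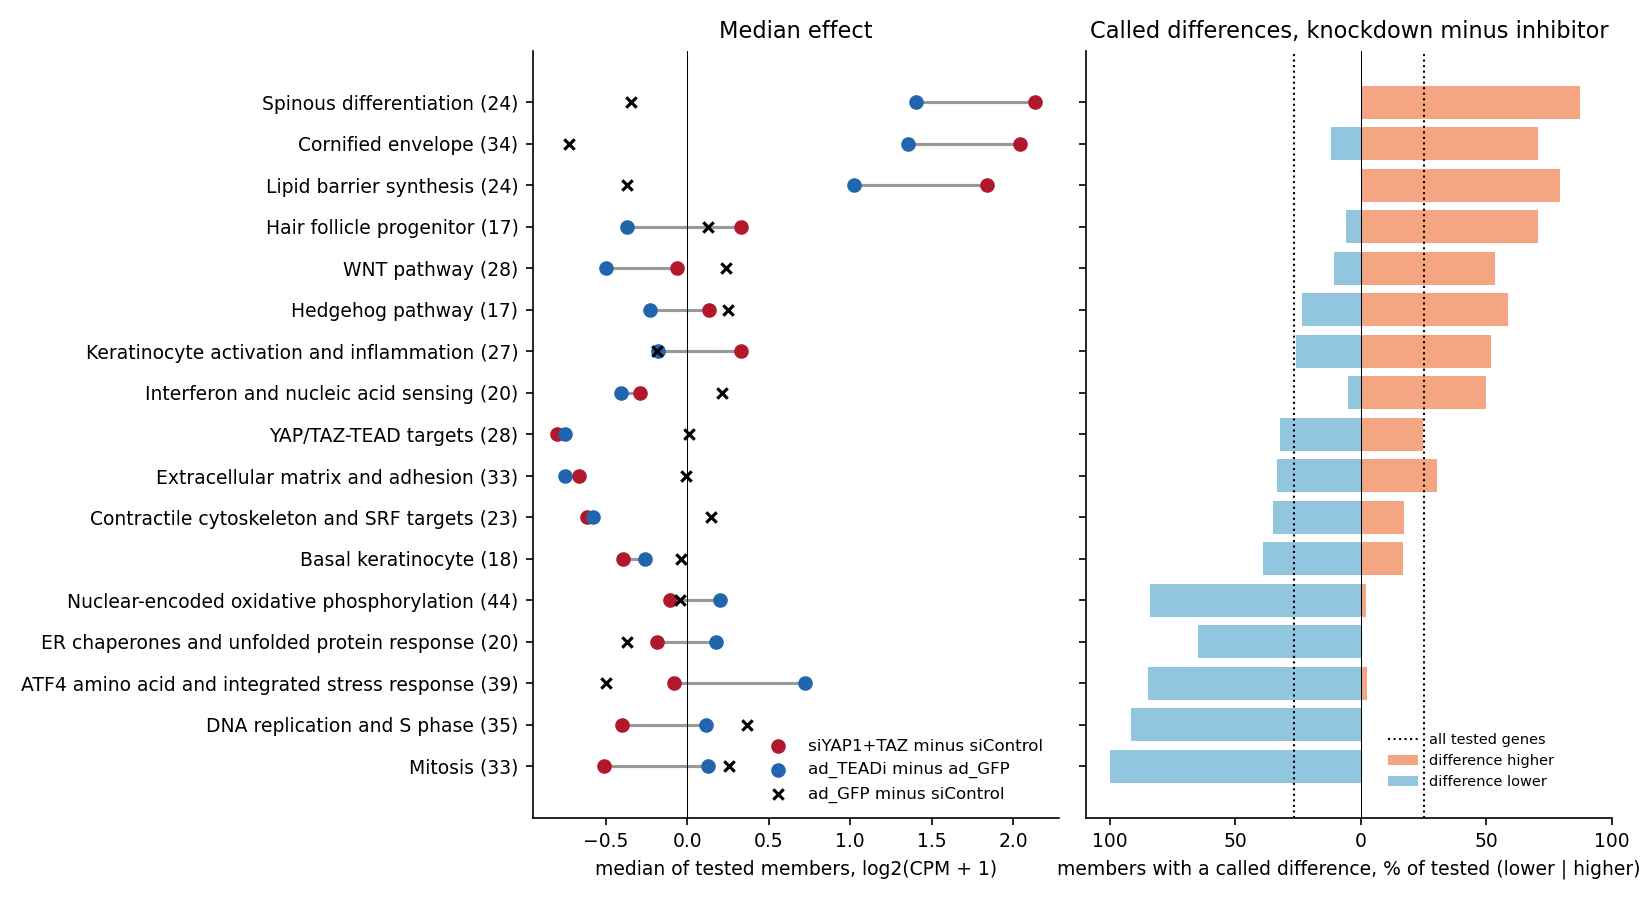
Left, median effect of the tested members of 17 gene lists (number in parentheses) in log2(CPM + 1) for the knockdown, the inhibitor and the controls. Right, percentage of members with a called difference, higher or lower, with dotted lines at the 25.1% and 26.4% of all genes. All 33 mitosis genes are lower, and spinous differentiation lies at 87.5% higher.

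Several of the largest positive differences among genes of at least 10 CPM lay mainly between the treated groups. Pla2g2f, a secreted phospholipase A2 gene of the suprabasal epidermis (chromosome 4, 138750533 to 138757626), had 202, 217 and 203 CPM in siYAP1+TAZ, against 25.0, 27.1 and 24.6 CPM in siControl. It had 20.54, 17.3 and 20.0 CPM in ad_TEADi, against 16.8, 15.2 and 20.6 CPM in ad_GFP. The siYAP1+TAZ libraries stood alone. The knockdown effect was 2.97, the inhibitor effect 0.14 and the difference 2.83 (SE 0.115; limma, Benjamini-Hochberg adjusted p = 1.13e-12). Selenop, which encodes the plasma selenium carrier selenoprotein P (chromosome 15, 3268547 to 3280508), had 46.5, 47.8 and 40.9 CPM in siYAP1+TAZ, against 5.88, 4.37 and 4.59 CPM in siControl. It had 6.85, 7.70 and 7.33 CPM in ad_TEADi, against 5.46, 6.21 and 7.44 CPM in ad_GFP. It showed the same separation (difference 2.78, limma, Benjamini-Hochberg adjusted p = 2.26e-11), with controls 0.31 apart. Krt15, a keratin gene of basal and hair follicle bulge cells (chromosome 11, 100131758 to 100135928), had 49.6, 58.9 and 50.4 CPM in siYAP1+TAZ, against 2.32, 1.72 and 2.15 CPM in siControl. It had 17.3, 10.7 and 10.8 CPM in ad_TEADi, against 6.94, 4.77 and 7.44 CPM in ad_GFP. Krt15 was highest in siYAP1+TAZ and was also higher in ad_TEADi than in ad_GFP, with effects of 4.14 and 0.90. Its difference of 3.23 (limma, Benjamini-Hochberg adjusted p = 5.11e-10) comprised 1.98 between the treated groups and 1.25 between the controls, which was also called.

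In other genes with large positive differences the controls carried much of the value. Apoe, the apolipoprotein E gene (chromosome 7, 19696109 to 19699188), had 482, 520.2 and 488 CPM in siYAP1+TAZ, against 34.1, 33.7 and 41.5 CPM in siControl. It had 182, 139 and 136 CPM in ad_TEADi, against 199.6, 217 and 207 CPM in ad_GFP. All 6 virus-treated libraries lay above siControl and below siYAP1+TAZ. Its difference of 4.20 was the largest among genes of at least 10 CPM (SE 0.121; limma, Benjamini-Hochberg adjusted p = 8.39e-15), and comprised 1.71 between the treated groups and 2.49 between the controls. Steap4, a metalloreductase gene, averaged 13.3 ± 1.81 CPM in siYAP1+TAZ, 5.25 ± 0.653 CPM in siControl, 6.45 ± 0.421 CPM in ad_TEADi and 25.5 ± 0.654 CPM in ad_GFP (mean ± SD, n = 3 each). Its calls were opposite (1.196 and -1.83), and of the difference of 3.03 a part of 2.09 lay between the controls. Glul, the glutamine synthetase gene, had 5.07, 5.88 and 5.68 CPM in siYAP1+TAZ, against 5.81, 8.21 and 6.96 CPM in siControl. It had 3.54, 4.26 and 4.07 CPM in ad_TEADi, against 37.9, 42.3 and 36.9 CPM in ad_GFP. Only ad_GFP was high, so that the inhibitor effect was -3.02 and the control part 2.33 of a difference of 2.74. Sostdc1, a secreted antagonist gene of BMP and WNT signals, averaged 58.4 CPM in siYAP1+TAZ, 18.02 CPM in siControl, 35.9 CPM in ad_TEADi and 49.3 CPM in ad_GFP, with a control part of 1.41 in a difference of 2.10. Gpnmb, a glycoprotein gene of lysosomes and melanosomes, averaged 383 ± 22.2 CPM in siYAP1+TAZ, 38.8 ± 2.31 CPM in siControl, 170.0 ± 3.36 CPM in ad_TEADi and 99.3 ± 10.8 CPM in ad_GFP (mean ± SD, n = 3 each). Its difference of 2.50 comprised 1.17 between the treated groups and 1.33 between the controls.

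Further genes had opposite calls in this direction. Xkrx, a gene of the XK family of membrane proteins, averaged 26.4 ± 0.716 CPM in siYAP1+TAZ, 11.9 ± 0.717 CPM in siControl, 4.08 ± 0.605 CPM in ad_TEADi and 7.97 ± 1.65 CPM in ad_GFP (mean ± SD, n = 3 each), with effects of 1.09 and -0.81. The treated part of its difference (2.44) exceeded the difference itself (1.90), as ad_GFP lay below siControl. Itgb8, an integrin subunit gene involved in the activation of latent TGF-beta, averaged 20.6 ± 1.57 CPM in siYAP1+TAZ, 12.3 ± 0.892 CPM in siControl, 7.63 ± 0.851 CPM in ad_TEADi and 14.5 ± 0.275 CPM in ad_GFP (mean ± SD, n = 3 each; difference 1.55, control part 0.22). Susd2 and the anoctamin gene Ano9 had differences of 1.65 and 1.66, with control parts of 0.78 and 0.74.

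Of 17 tested hair follicle progenitor genes 12 had a higher difference (70.6%, against 25.1% of all genes), and 1 had a lower one. That gene was Cd34 (-0.60), named after its value was seen. Lgr5, a stem cell marker and R-spondin receptor gene, was low, averaging 2.46 ± 0.245 CPM in siYAP1+TAZ, 0.446 ± 0.114 CPM in siControl, 0.406 ± 0.119 CPM in ad_TEADi and 1.30 ± 0.209 CPM in ad_GFP (mean ± SD, n = 3 each). It was higher in siYAP1+TAZ than in siControl and lower in ad_TEADi than in ad_GFP, with effects of 1.26 and -0.71 and a difference of 1.97 (limma, Benjamini-Hochberg adjusted p = 1.03e-08). In the WNT pathway list 15 of 28 had a higher difference (53.6%, against 25.1% of all genes) and 3 a lower one (10.7%, against 26.4%). The controls differed here: 16 of 28 were called higher (against 18.7% of all genes) and 3 lower in ad_GFP than in siControl. The median control part was 0.24 and the median treated part 0.07. The control part was the larger in 9 of the 18 called differences. Most of its members fell with the inhibitor (19 of 28, against 5 that rose), while 13 fell and 8 rose with the knockdown. Of all genes 26.3% fell and 33.5% rose with the inhibitor, and 36.1% fell and 32.7% rose with the knockdown. The WNT ligand gene Wnt7a averaged 11.5 CPM in siYAP1+TAZ, 23.8 CPM in siControl, 6.67 CPM in ad_TEADi and 30.4 CPM in ad_GFP and fell under both (effects -0.99 and -2.04). Sfrp1, a secreted WNT antagonist gene, averaged 27.7 CPM in siYAP1+TAZ, 3.70 CPM in siControl, 11.2 CPM in ad_TEADi and 5.47 CPM in ad_GFP and rose under both, by 2.61 and 0.92.

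In the Hedgehog pathway list 10 of 17 genes had a higher difference (58.8%, against 25.1% of all genes) and 4 a lower one (23.5%, against 26.4%). Under column totals 6 of 17 were higher, where 2514 of all 12966 genes were. In ad_GFP 10 of the 17 were called higher than in siControl (against 18.7% of all genes), with a median control part of 0.25 and a median treated part of -0.13. Gli1, a transcription factor and target gene of the pathway, had 8.91, 8.08 and 8.27 CPM in siYAP1+TAZ, against 3.33, 3.62 and 3.96 CPM in siControl. It had 10.5, 8.44 and 9.06 CPM in ad_TEADi, against 9.03, 8.98 and 9.22 CPM in ad_GFP. The siControl libraries were low, and the libraries of siYAP1+TAZ, ad_TEADi and ad_GFP lay close together. The difference of 0.99 (limma, Benjamini-Hochberg adjusted p = 1.13e-06) had a control part of 1.12 and a treated part of -0.13, which was not called. The Hedgehog co-receptor gene Boc averaged 11.3 CPM in siYAP1+TAZ, 9.09 CPM in siControl, 9.72 CPM in ad_TEADi and 14.9 CPM in ad_GFP (difference 0.86, control part 0.66), and its knockdown effect was not called under column totals (limma, Benjamini-Hochberg adjusted p = 0.213).

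Genes of the cell cycle had lower differences. This held for all 33 tested mitosis genes (against 26.4% of all genes), with values from -0.86 to -0.46. With the knockdown 33 fell, and with the inhibitor 13 rose and 0 fell (limma; 0 fell at an unadjusted p under 0.05). Of all genes 36.1% fell with the knockdown, and 33.5% rose and 26.3% fell with the inhibitor. Among 35 genes of DNA replication and S phase the difference was lower in 32 (91.4%) and higher in 0 (0 at an unadjusted p under 0.05). With the knockdown 32 of them fell, and with the inhibitor 16 rose and 2 fell. The genes without a called difference, named after their values were seen, were Gins1, Gins2 and Gins3, subunits of the replicative helicase complex. The median per library, relative to the siControl mean, was -0.44, -0.61 and -0.47 for mitosis genes in siYAP1+TAZ, against -0.01, -0.01 and 0.03 in siControl. It was 0.43, 0.43 and 0.37 in ad_TEADi, against 0.31, 0.19 and 0.30 in ad_GFP. Both groups of virus-treated libraries thus lay above both groups of siRNA-treated ones. In ad_GFP 30 of 33 mitosis genes and 32 of 35 replication genes were called higher than in siControl (against 18.7% of all genes). The median control part was 0.25 and the median treated part -0.92 for mitosis genes, and 0.37 and -0.88 for replication genes. The treated part was the larger in all 33 called differences of mitosis genes and all 32 of replication genes.

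Ccne2, which encodes the S phase cyclin E2 (chromosome 4, 11191351 to 11204779), had 10.6, 9.14 and 10.4 CPM in siYAP1+TAZ, against 14.6, 13.0 and 15.0 CPM in siControl. It had 38.8, 36.5 and 37.9 CPM in ad_TEADi, against 21.6, 22.7 and 23.1 CPM in ad_GFP. The groups did not overlap, with siYAP1+TAZ the lowest and ad_TEADi the highest. The effects were -0.46 and 0.72, with a difference of -1.19 (SE 0.0925; limma, Benjamini-Hochberg adjusted p = 5.59e-09). Both Cdt1 and Mcm3 act in replication licensing. Cdt1 averaged 10.9 CPM in siYAP1+TAZ, 13.9 CPM in siControl, 26.6 CPM in ad_TEADi and 16.7 CPM in ad_GFP (difference -0.95), and Mcm3 averaged 35.3 CPM in siYAP1+TAZ, 51.2 CPM in siControl, 82.9 CPM in ad_TEADi and 64.9 CPM in ad_GFP (difference -0.88). The mitotic kinase genes Aurka and Plk1 and the cyclin gene Ccnb1 had differences of -0.86, -0.84 and -0.76. Plk1, as an example, averaged 25.8 ± 1.90 CPM in siYAP1+TAZ, 38.7 ± 2.23 CPM in siControl, 51.3 ± 4.32 CPM in ad_TEADi and 42.3 ± 0.872 CPM in ad_GFP (mean ± SD, n = 3 each). The difference was lower in the same number of mitosis genes (33) under column totals and quantile normalization. The counts of rises with the inhibitor depended on the scaling: 7 mitosis genes rose under each of these, and among replication genes 10 rose and 6 fell under column totals. Of all 12966 genes 3034 rose and 4717 fell with the inhibitor under column totals, and 3536 rose under quantile normalization.

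**Figure D4:**
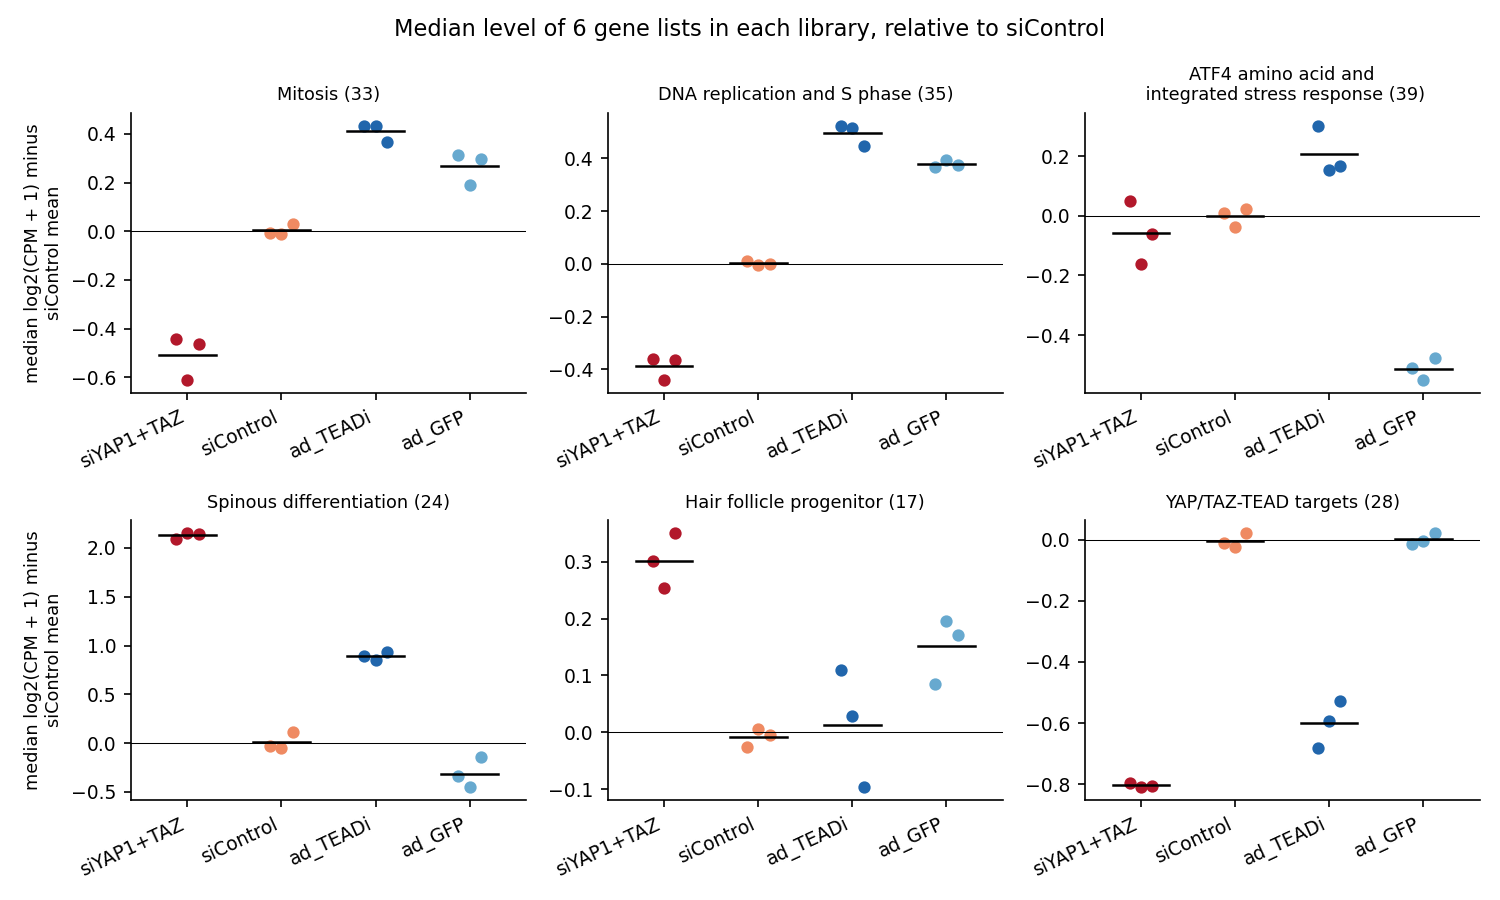
Median level of the tested members of 6 gene lists in each library, as log2(CPM + 1) minus the siControl mean, with 1 point per library and a line at the group mean. Mitosis and replication genes are lowest in siYAP1+TAZ and higher in ad_TEADi and ad_GFP than in siControl, and ATF4 genes are lowest in ad_GFP.

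Genes of the ATF4 program for amino acid supply and the integrated stress response mostly had lower differences. The difference was lower in 33 of 39 (84.6%, against 26.4% of all genes). It was higher in 1 (against 25.1% of all genes), the cystine transporter gene Slc7a11 (0.70), named after its value was seen. The knockdown effect was called higher in 15 and lower in 15 (against 32.7% and 36.1% of all genes). The inhibitor effect was called higher in 35 and lower in 3 (against 33.5% and 26.3%). Under column totals the knockdown effect was higher in 7 and lower in 23, where 2836 and 7146 of all 12966 genes were. Here the controls moved: 34 of 39 were called lower in ad_GFP than in siControl (against 21.8% of all genes), with a median of -0.50. The control part was the larger in 25 of the 34 called differences. The per-library medians relative to the siControl mean were 0.05, -0.16 and -0.06 in siYAP1+TAZ, against 0.01, -0.04 and 0.02 in siControl. They were 0.30, 0.15 and 0.17 in ad_TEADi, against -0.51, -0.55 and -0.48 in ad_GFP. Stc2, the stanniocalcin 2 gene, had 15.7, 10.8 and 11.7 CPM in siYAP1+TAZ, against 15.4, 16.1 and 19.6 CPM in siControl. It had 20.46, 15.6 and 16.4 CPM in ad_TEADi, against 4.77, 4.55 and 5.69 CPM in ad_GFP. The ad_GFP libraries were the lowest, and the control part was -1.59 of a difference of -2.02 (limma, Benjamini-Hochberg adjusted p = 1.53e-08). Psph, a serine synthesis enzyme gene, averaged 46.4 ± 3.503 CPM in siYAP1+TAZ, 53.7 ± 1.78 CPM in siControl, 56.2 ± 6.90 CPM in ad_TEADi and 22.2 ± 1.54 CPM in ad_GFP (mean ± SD, n = 3 each; difference -1.50, control part -1.24). Chac1, a glutathione-degrading enzyme gene, Pck2, mitochondrial PEPCK, and Aldh1l2, a mitochondrial folate enzyme, had differences of -1.45, -1.52 and -1.84, with control parts of -0.98, -1.18 and -1.61. Of 20 endoplasmic reticulum chaperone and unfolded protein response genes 13 had a lower difference (65.0%, against 26.4% of all genes). A higher one was called in 0 (limma), with 1 at an unadjusted p under 0.05 and 2 on linear CPM. In ad_GFP 17 of the 20 were called lower than in siControl (against 21.8% of all genes). The chaperone gene Hspa5 averaged 824 ± 78.5 CPM in siYAP1+TAZ, 1095 ± 38.1 CPM in siControl, 962 ± 45.3 CPM in ad_TEADi and 706 ± 26.1 CPM in ad_GFP (mean ± SD, n = 3 each; difference -0.86), and the secreted ER stress genes Manf and Creld2 had differences of -0.85 and -0.80.

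**Figure D5:**
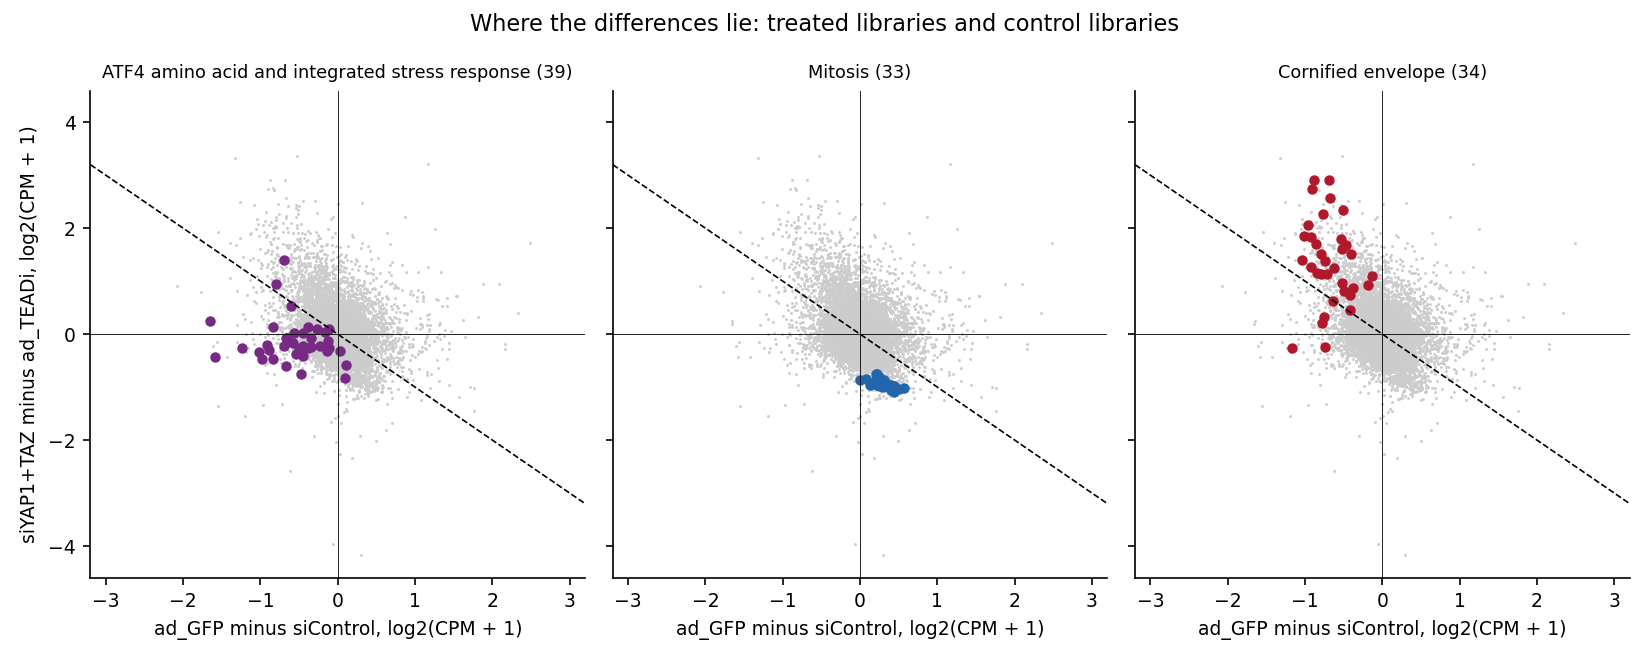
For each tested gene (grey), the control part of the difference (ad_GFP minus siControl, horizontal axis) and the treated part (siYAP1+TAZ minus ad_TEADi, vertical axis) in log2(CPM + 1), with members of 3 lists coloured. On the dashed line the parts cancel and the effects are equal. ATF4 genes lie mostly to the left of 0, mitosis genes below 0 on the treated axis and cornified envelope genes mostly above it.

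Among genes of at least 10 CPM the largest negative differences were those of Prl2c2 and Prl2c3, prolactin family genes, whose products are hormones related to prolactin and known mainly from the placenta. Prl2c2 had 14.7, 17.0 and 15.7 CPM in siYAP1+TAZ, against 103, 99.0 and 88.6 CPM in siControl. It had 41.0, 41.1 and 44.5 CPM in ad_TEADi, against 34.6, 33.4 and 29.1 CPM in ad_GFP. The siControl libraries were the highest and the siYAP1+TAZ libraries the lowest (difference -2.92, control part -1.55; limma, Benjamini-Hochberg adjusted p = 6.23e-14). Prl2c3 averaged 25.2 ± 1.81 CPM in siYAP1+TAZ, 227 ± 9.23 CPM in siControl, 75.4 ± 1.78 CPM in ad_TEADi and 98.6 ± 4.81 CPM in ad_GFP (mean ± SD, n = 3 each; difference -2.74). These genes have near-identical copies, between which the counting could have split reads, so their levels are uncertain. Prl8a1 averaged 9.35 ± 0.410 CPM in siYAP1+TAZ, 18.5 ± 1.56 CPM in siControl, 24.8 ± 0.749 CPM in ad_TEADi and 10.8 ± 0.762 CPM in ad_GFP (mean ± SD, n = 3 each), and Prl8a9 54.4 ± 2.68 CPM in siYAP1+TAZ, 85.6 ± 6.55 CPM in siControl, 91.0 ± 2.65 CPM in ad_TEADi and 44.6 ± 1.36 CPM in ad_GFP (mean ± SD, n = 3 each). Both had opposite calls, with effects of -0.91 and 1.13 for Prl8a1 and -0.64 and 1.01 for Prl8a9, and both are subject to the same reservation on copies.

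The promoters of Prl8a1 and Prl8a9, with opposite calls, and of Cd200, which was alike, are shown because each holds the TEAD motif GGAATG or its reverse complement, in capitals. The windows are those of RefSeq on GRCm38.p6, from 250 bases before to 50 bases after the start of the gene, in the sense of the gene. They are chr13:27582122-27582421 for Prl8a1, chr13:27564557-27564856 for Prl8a9 and chr16:45409004-45409303 for Cd200, all on the minus strand.
Prl8a1: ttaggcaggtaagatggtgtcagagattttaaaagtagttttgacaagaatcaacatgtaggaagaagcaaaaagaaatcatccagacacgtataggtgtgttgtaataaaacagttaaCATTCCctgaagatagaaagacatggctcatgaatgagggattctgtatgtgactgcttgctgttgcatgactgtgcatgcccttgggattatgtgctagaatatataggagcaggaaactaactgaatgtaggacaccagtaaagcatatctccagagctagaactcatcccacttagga
Prl8a9: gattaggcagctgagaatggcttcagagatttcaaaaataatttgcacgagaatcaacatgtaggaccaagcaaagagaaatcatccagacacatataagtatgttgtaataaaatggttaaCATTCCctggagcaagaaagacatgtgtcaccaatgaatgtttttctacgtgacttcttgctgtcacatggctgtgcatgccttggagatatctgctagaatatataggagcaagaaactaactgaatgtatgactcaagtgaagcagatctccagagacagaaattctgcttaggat
Cd200: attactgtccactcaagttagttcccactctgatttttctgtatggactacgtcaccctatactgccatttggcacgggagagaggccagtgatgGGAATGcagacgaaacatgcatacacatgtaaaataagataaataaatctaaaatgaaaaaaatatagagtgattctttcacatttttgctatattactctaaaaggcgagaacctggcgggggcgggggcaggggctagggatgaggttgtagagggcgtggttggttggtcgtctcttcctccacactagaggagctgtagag
The motif starts 131 bases before the gene start in Prl8a1, 128 in Prl8a9 and 155 in Cd200. The Prl8a1 and Prl8a9 windows were identical at 248 of 305 aligned positions (81.3%), so their matches are not independent. The motif, searched on both strands as these 6 letters, stands in 4817 of 32851 RefSeq promoters (14.7%). Of the genes with the 8 largest differences in each direction and the 8 leading alike genes, 16 had an entry and 6 a match: Apoe, Prl8a1, Prl8a9, Slfn2, Galnt6 and Cd200. A match was found in 19 of 74 alike falls with an entry (25.7%), 11 of 57 alike rises (19.3%), 60 of 313 genes with a difference at least 2-fold higher (19.2%) and 10 of 65 at least 2-fold lower (15.4%), against 1389 of 9661 tested genes (14.4%). These are descriptions, and a match is not a binding site.

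Acvrl1, which encodes the BMP receptor ALK1 (chromosome 15, 101128522 to 101145336), had 4.09, 5.14 and 5.02 CPM in siYAP1+TAZ, against 10.9, 10.2 and 10.6 CPM in siControl. It had 22.3, 21.5 and 18.4 CPM in ad_TEADi, against 8.48, 8.86 and 7.68 CPM in ad_GFP. It was lowest in siYAP1+TAZ and highest in ad_TEADi, with a control part of -0.31. The effects were -1.01 and 1.22, with a difference of -2.23 (SE 0.122; limma, Benjamini-Hochberg adjusted p = 4.87e-11). Mmp10, the stromelysin 2 gene, averaged 48.0 ± 2.06 CPM in siYAP1+TAZ, 43.5 ± 1.44 CPM in siControl, 94.0 ± 4.32 CPM in ad_TEADi and 24.5 ± 1.33 CPM in ad_GFP (mean ± SD, n = 3 each; difference -1.76). Its inhibitor effect was 1.90, and its knockdown effect of 0.14 was not called under column totals (limma, Benjamini-Hochberg adjusted p = 0.38). Smad7, a feedback inhibitor of TGF-beta signals, averaged 29.1 CPM in siYAP1+TAZ, 26.6 CPM in siControl, 36.0 CPM in ad_TEADi and 16.7 CPM in ad_GFP, with a difference of -0.94.

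The differences of the EGFR family split into ligands and receptors. All 12 tested members had a called difference, 5 higher (41.7%, against 25.1% of all genes) and 7 lower (58.3%, against 26.4%). In ad_GFP 7 of the 12 were called lower than in siControl (against 21.8% of all genes) and 3 higher, with a median control part of -0.29. Between the treated groups 6 were higher (against 29.8% of all genes) and 3 lower (against 30.9%), with a median treated part of 0.23. The lower ones were the ligand genes Areg, Ereg, Epgn, Hbegf, Tgfa, Btc and Nrg1. The higher ones were the receptor genes Egfr, Erbb2 and Erbb3 and the inhibitor genes Lrig1 and Errfi1, a division noticed after the values were seen. Ereg was also one of the alike genes, with effects of 1.26 and 1.51. On linear CPM 4 members had a lower difference. Erbb3 had 177, 186 and 174 CPM in siYAP1+TAZ, against 62.3, 67.5 and 69.2 CPM in siControl. It had 85.9, 78.1 and 88.3 CPM in ad_TEADi, against 75.7, 66.7 and 81.7 CPM in ad_GFP. It was higher in siYAP1+TAZ than in any other group (difference 1.25, limma, Benjamini-Hochberg adjusted p = 1.49e-09), and its inhibitor effect of 0.17 was not called under column totals (limma, Benjamini-Hochberg adjusted p = 0.302). Areg, the amphiregulin gene, had 160.1, 146 and 152 CPM in siYAP1+TAZ, against 50.9, 48.5 and 59.1 CPM in siControl. It had 145, 121 and 134 CPM in ad_TEADi, against 16.1, 13.2 and 19.06 CPM in ad_GFP. It rose under both treatments, with ad_TEADi just below siYAP1+TAZ and ad_GFP far below siControl. The difference of -1.47 (limma, Benjamini-Hochberg adjusted p = 3.34e-08) had a control part of -1.66 and a treated part of 0.19, which was not called. On linear CPM the difference was not called either (limma, Benjamini-Hochberg adjusted p = 0.0603, against 4.98e-10 at the lowest over the alternatives). Tgfa averaged 135 CPM in siYAP1+TAZ, 152 CPM in siControl, 155 CPM in ad_TEADi and 92.3 CPM in ad_GFP (difference -0.92). Among immediate early genes, which ERK signals induce, Egr3, Jun and the phosphatase gene Dusp1 rose more with the knockdown. Egr3 averaged 109 CPM in siYAP1+TAZ, 29.7 CPM in siControl, 32.3 CPM in ad_TEADi and 24.7 CPM in ad_GFP (difference 1.46). Jun averaged 233 CPM in siYAP1+TAZ, 76.8 CPM in siControl, 101 CPM in ad_TEADi and 80.5 CPM in ad_GFP (difference 1.27). Dusp1 averaged 58.1 CPM in siYAP1+TAZ, 8.60 CPM in siControl, 16.6 CPM in ad_TEADi and 5.80 CPM in ad_GFP (difference 1.25). The list as a whole had 10 higher and 10 lower of 28 (35.7% each, against 25.1% and 26.4% of all genes).

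In the interferon and nucleic acid sensing list 10 of 20 had a higher difference (against 25.1% of all genes) and 1 a lower one. In ad_GFP 10 of the 20 were called higher than in siControl (against 18.7% of all genes), with a median control part of 0.21 and a median treated part of 0.06. The lower one was Trim25 (-0.36), named after its value was seen. With the knockdown 10 fell and 4 rose (against 36.1% and 32.7% of all genes). With the inhibitor 14 fell and 3 rose (against 26.3% and 33.5%). Mx2, an antiviral GTPase gene, averaged 21.6 ± 0.688 CPM in siYAP1+TAZ, 1.79 ± 0.226 CPM in siControl, 2.94 ± 0.367 CPM in ad_TEADi and 1.28 ± 0.401 CPM in ad_GFP (mean ± SD, n = 3 each; difference 2.22, limma, Benjamini-Hochberg adjusted p = 1.97e-09). The smaller difference of Mx1 (0.71) was not called with a pseudocount of 0.1 CPM (limma, Benjamini-Hochberg adjusted p = 0.0792, against 0.000239 at the lowest over the alternatives). Of 27 keratinocyte activation and inflammation genes 14 had a higher difference (51.9%, against 25.1% of all genes) and 7 a lower one (25.9%, against 26.4%). The chemokine gene Ccl2 averaged 2.56 CPM in siYAP1+TAZ, 1.75 CPM in siControl, 1.48 CPM in ad_TEADi and 6.29 CPM in ad_GFP, with a control part of 1.41 in a difference of 1.93, and the defensin gene Defb4 5.70 CPM in siYAP1+TAZ, 1.57 CPM in siControl, 1.07 CPM in ad_TEADi and 1.34 CPM in ad_GFP (difference 1.57). The keratin gene Krt6b and the alarmin gene S100a8, named after their values were seen, were alike, with effects of 2.33 and 2.14 for Krt6b and 1.95 and 1.74 for S100a8.

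Markers of other cell types were counted as a check on the composition of the libraries. The 6 tested fibroblast markers summed to 12.29 to 18.31 CPM per library in siYAP1+TAZ, 8.335 to 11.62 in siControl, 10.46 to 11.48 in ad_TEADi and 6.913 to 8.167 in ad_GFP. The difference of effects was called for 0 of them (limma with Benjamini-Hochberg adjustment; 0 higher and 0 lower at an unadjusted p under 0.05). The 4 tested immune markers summed to 49.56 to 51.34 CPM in siYAP1+TAZ, 17.18 to 18.14 in siControl, 39.61 to 43.66 in ad_TEADi and 17.15 to 19.59 in ad_GFP, which was mainly Cd68, a lysosomal glycoprotein gene of macrophages, averaging 38.0 CPM in siYAP1+TAZ, 9.97 CPM in siControl, 29.3 CPM in ad_TEADi and 9.97 CPM in ad_GFP. The macrophage receptor gene Csf1r averaged 0.320 CPM in siYAP1+TAZ, 1.08 CPM in siControl, 0.275 CPM in ad_TEADi and 1.29 CPM in ad_GFP. The 5 tested melanocyte markers summed to 11.57 to 13.4 CPM in siYAP1+TAZ, 9.15 to 10.27 in siControl, 9.788 to 12.07 in ad_TEADi and 8.485 to 9.671 in ad_GFP. The 8 tested endothelial markers summed to 13.25 to 14.95 CPM in siYAP1+TAZ, 11.16 to 13.64 in siControl, 13.81 to 15.72 in ad_TEADi and 12.65 to 15.52 in ad_GFP. The 5 tested sebaceous markers summed to 4951 to 5012 CPM in siYAP1+TAZ, 1751 to 1764 in siControl, 2651 to 2937 in ad_TEADi and 1197 to 1390 in ad_GFP. Most of that sum was Fabp5, a fatty acid carrier gene that keratinocytes also express, averaging 4661 CPM in siYAP1+TAZ, 1177 CPM in siControl, 2193 CPM in ad_TEADi and 725 CPM in ad_GFP. The sebaceous lipid droplet gene Cidea averaged 17.0 CPM in siYAP1+TAZ, 4.54 CPM in siControl, 17.6 CPM in ad_TEADi and 3.10 CPM in ad_GFP. The part of these cell types in the differences of effects was not tested.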

How the data were processed

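Poly(A) RNA from 12 libraries in 4 groups of 3 was sequenced. The values deposited by the authors are CPM with TMM scaling, going by the name of the deposited table, for 17090 genes. The processing notes name build mm10. Per the submitters' processing notes, the tools included cutadapt 1.18, STAR 2.7.0f and Partek 8.0.19.0819, with no order or role given. The series table held no column beyond these libraries. Whole reads could not be recovered from the values, so no count model was used.

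Values were taken as log2(CPM + 1), with at least 1 CPM in at least 3 libraries required. limma 3.58.1 in R 4.3.3 was fitted to the means of all 4 groups with a mean-variance trend, which gave the knockdown effect, the inhibitor effect, their difference, the difference of the controls and that of the treated groups. p-values are two-sided, with Benjamini-Hochberg adjustment over all 12966 tested genes at 0.05. The fit was also run on simulated data in which genes changed in siYAP1+TAZ alone. Its spread was taken from the real libraries, in place of a larger one set by hand at first. No difference between the controls was simulated, so the run does not cover that feature of the data. Depth was estimated from the smallest step between values. Log2 fold changes understate the change of low genes.

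Named genes were, among those with a mean of at least 10 CPM, the 8 largest called differences in each direction, the 5 opposite calls in each direction with the largest smaller effect, the 4 alike rises and 4 alike falls with the largest mean effect, the YAP, TAZ and TEAD genes and Vgll4, of which Tead2 lies under 10 CPM, and, at any level, up to 3 called members with the largest difference in each of 33 gene lists. The members, lists and rules were chosen with earlier results of these data known. Coordinates are those of the deposited table, with 1 subtracted from its end, which matches GENCODE vM21 for 12954 of 12966 tested genes (99.9%). Alternatives to the pseudocount, filter, scaling, trend, scale and replicate set are given in the closing section. One member of a gene list is not reported here. The main fit did not pair libraries by the shared letters A to C.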

Additional observations from a re-analysis of the deposited data

How the results depend on the processing

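With deposited scaling and a pseudocount of 1 CPM, 3249 genes had a higher and 3424 a lower difference, 436 and 89 of them by at least 2-fold. The counts at 2-fold moved most: 185 lower with a pseudocount of 0.1 CPM, 276 higher and 56 lower with 3 CPM, and 58 lower with genes averaging under 5 CPM left out, which tested fewer genes (10289). The other counts stayed within 1.5 times. Leaving out each library in turn gave 3018 to 3227 higher, 3063 to 3391 lower, 394 to 472 higher and 86 to 97 lower by 2-fold, 323 to 371 and 523 to 632 opposite calls, and 149 to 208 alike genes. A replicate block on the letters A to C gave 3328 higher and 3519 lower over all libraries, and 3336 and 3492 within each experiment, with 394 and 681, or 385 and 664, opposite calls and 178 or 181 alike genes. The correlations of deviations of same-letter libraries were -0.0136, 0.0874 and 0.0276 in the siRNA groups and -0.00355, 0.147 and 0.161 in the virus groups. Between different letters they ran from -0.0777 to 0.0527 in the siRNA groups and from -0.166 to 0.0282 in the virus groups. These values do not settle whether the letters mark pairs of libraries.

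Of 113 named genes 104 kept the direction and call of the difference in every alternative run. Cpm, not called on the log scale (-0.13), was higher by 22.8 CPM on linear CPM (limma, Benjamini-Hochberg adjusted p = 0.000149). As described above, its effects were alike as ratios (2.53 and 2.66 on the log2 scale), while its control levels were 10.15 CPM in siControl and 4.72 CPM in ad_GFP. Cidea lost its call in 12 alternatives (limma, Benjamini-Hochberg adjusted p of 0.00245 to 0.127 over the alternatives). Linear CPM also gained calls for Thbs1, Cd200, Galnt6 and Ly6g6c and ended that of Areg. Ly6g6c was also called with a pseudocount of 3 CPM, and without ad_GFP replicate B (limma, Benjamini-Hochberg adjusted p = 0.00287). Column totals gave 11 lower TGF-beta genes, 2 higher and 8 lower cholesterol genes and 16 lower hypoxia genes, and quantile normalization 11 lower basal genes. Linear CPM gave 4 lower EGFR family genes, 2 lower cornified envelope genes, 2 lower Notch genes and 6 higher Hippo genes. A mean of at least 5 CPM left 5 higher TGF-beta genes. Depth limits the genes near 1 CPM, where steps of 1 read are large.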

Other observations

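The gene lists not described above are read against all tested genes, of which 25.1% had a higher and 26.4% a lower difference. Of 44 nuclear-encoded oxidative phosphorylation genes 37 had a lower difference (84.1%, against 26.4% of all genes). The inhibitor effect was called higher in 34 and lower in 2 (against 33.5% and 26.3% of all genes). The knockdown effect was called higher in 2 and lower in 19 (against 32.7% and 36.1%). The median difference was -0.28, and the lowest was -0.61. Atp5g1, a subunit gene of the ATP synthase, averaged 71.1 CPM in siYAP1+TAZ, 95.5 CPM in siControl, 96.0 CPM in ad_TEADi and 83.3 CPM in ad_GFP, and Cox7c, of cytochrome oxidase, averaged 66.6 CPM in siYAP1+TAZ, 86.6 CPM in siControl, 89.4 CPM in ad_TEADi and 78.6 CPM in ad_GFP. Uqcrq, of complex III, averaged 68.2 CPM in siYAP1+TAZ, 73.7 CPM in siControl, 84.8 CPM in ad_TEADi and 63.2 CPM in ad_GFP. Under column totals 23 of the 44 rose with the inhibitor and 39 fell with the knockdown, where 3034 and 7146 of all 12966 genes did. Of 35 lysosome genes 16 had a higher (45.7%) and 10 a lower difference (28.6%). They included the protease gene Ctsz, which averaged 3.27 CPM in siYAP1+TAZ, 4.80 CPM in siControl, 12.8 CPM in ad_TEADi and 4.99 CPM in ad_GFP (difference -1.64), and Fnip2, a regulator gene of lysosomal signalling, which averaged 104 CPM in siYAP1+TAZ, 25.8 CPM in siControl, 48.8 CPM in ad_TEADi and 22.2 CPM in ad_GFP (difference 0.88).

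Of 23 NRF2 antioxidant genes 9 had a higher (39.1%) and 10 a lower difference (43.5%). The glutathione transferase gene Gsta1 averaged 75.6 CPM in siYAP1+TAZ, 8.15 CPM in siControl, 12.6 CPM in ad_TEADi and 2.89 CPM in ad_GFP (difference 1.23), and the ferritin gene Fth1 averaged 317 CPM in siYAP1+TAZ, 439 CPM in siControl, 536 CPM in ad_TEADi and 405 CPM in ad_GFP, with opposite calls (difference -0.88). Gsta1 and Gsta2 are similar copies, so their levels are uncertain. Of 29 hypoxia and glycolysis genes 7 had a higher (24.1%) and 9 a lower difference (31.0%), shares near those of all genes. The hexokinase gene Hk2 averaged 391 CPM in siYAP1+TAZ, 84.5 CPM in siControl, 158 CPM in ad_TEADi and 76.0 CPM in ad_GFP (difference 1.14). Notch genes had 3 higher (23.1%) and 4 lower differences (30.8%) of 13, also near the shares of all genes, and the receptor gene Notch2 averaged 188 CPM in siYAP1+TAZ, 95.4 CPM in siControl, 96.0 CPM in ad_TEADi and 92.2 CPM in ad_GFP (difference 0.92). CDK inhibitor and p53 target genes had 7 higher (28.0%) and 11 lower (44.0%) of 25. The p53 antagonist gene Mdm2 averaged 135 CPM in siYAP1+TAZ, 110.4 CPM in siControl, 191 CPM in ad_TEADi and 92.5 CPM in ad_GFP (difference -0.75). TGF-beta genes had 9 higher (37.5%) and 7 lower (29.2%) of 24, and cholesterol synthesis genes 5 higher and 5 lower of 26 (19.2% each), below the shares of all genes. Basal keratinocyte genes had 3 higher (16.7%) and 7 lower (38.9%) of 18, and Hippo pathway genes 3 higher (11.5%) and 9 lower (34.6%) of 26. The lower Hippo genes include Yap1 and Wwtr1, the targets of the siRNA pools, whose falls were set by the design. Among marker lists of other cells, a called difference was found in 1 of 5 tested melanocyte genes (Mitf, 0.50) and 1 of 4 immune genes (Cd68, 0.36). It was found in 1 of 8 endothelial genes (Vwf, -0.57) and 1 of 5 Merkel and neural genes (Tubb3, -0.67). Of 5 sebaceous genes 1 had a higher and 4 a lower difference. The shares of all genes were 25.1% higher and 26.4% lower.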
